A study of Mus musculus with 3 samples.

Results

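Interleukin-1 (IL-1) family transcripts were examined in leukemia cells driven by TBLR1-RARα (TR), a fusion protein of acute promyelocytic leukemia. The 10 genes described here, 4 that encode ligands or a ligand antagonist and 6 that encode receptor chains, were chosen by symbol from 16742 genes listed in the RNA-seq data, after earlier results of these data were known. They were Il1a, Il1b, Il18, Il1rn, Il1r1, Il1r2, Il1rap, Il1rl1, Il18r1 and Il18rap, and all 10 were listed in at least 1 library. Their levels are therefore given as a description. Where the text says that a gene was called, this is the outcome of a rule applied to all genes alike, and for these 10 it is not independent evidence.

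There were 3 libraries, 1 for each condition, and each pooled the bone marrow of 3 C57BL/6 mice whose age is labelled as 6 to 8 weeks. The control library came from lin- cells of wild-type mice, that is, marrow left after depletion of cells with lineage markers. The TR1 and TR9 libraries came from GFP+ marrow cells of mice with the genotype TBLR1-RARa, and the methods place them in the third generation of transplanted TR leukemia. TR1 and TR9 stand for leukemias that began in 2 different primary recipients. The fusion was carried by a retrovirus with GFP on the same transcript, introduced into lin- cells of C57BL/6 mice. Control cells were obtained by depletion and TR cells by sorting for GFP, so leukemia and the way of isolation cannot be told apart. Control cells were not transduced or transplanted.

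The IL-1 family couples the release of a ligand to a paired receptor. IL-1α and IL-1β bind the signaling receptor IL-1R1, which then recruits the accessory chain IL-1RAP, and the adaptor MYD88 carries the signal to NF-κB. IL-1R2 is a decoy that binds IL-1 without a signaling domain, and the antagonist encoded by Il1rn occupies IL-1R1 without signaling. The same accessory chain serves ST2, the IL-33 receptor encoded by Il1rl1. IL-18 uses its own pair, IL-18R1 and the accessory chain IL-18RAP. IL-1β and IL-18 are made as precursors that caspase-1 cleaves in inflammasomes. In bone marrow, IL-1 is known to drive progenitors toward granulocytes and monocytes, ST2 marks mast cells and basophils among others, IL-18 receptors are best known on NK and T cells, and IL-1RAP is known as a surface antigen of myeloid leukemia cells.

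Expected counts, the estimates of reads per gene made by RSEM, came to 5488778 for the control library, 5571409 for TR1 and 5129662 for TR9. Levels are given as FPKM, a unit that corrects for the length of the transcript and the size of the library. The labels could be checked in part: Rara, the mouse gene homologous to the receptor part of the fusion, had 58.9 counts in control against 1168 in TR1 and 359 in TR9, and Tbl1xr1 had 854, 1186 and 981. Whether reads of the introduced fusion were counted in these genes was not tested. Elane, a granule protease of promyelocytes, rose from 866 FPKM to 9103 in TR1 and 13178 in TR9. The lin- library held transcripts of several other cell types. Of the 11 listed erythroid and megakaryocyte markers, 11 were lower in both TR libraries, and their levels added up to 3410 FPKM in control against 7.95 and 11.4 in TR1 and TR9. In such bulk samples, fewer cells of a type and less RNA per cell cannot be told apart.

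A gene was called where a Poisson test of the reads of 2 libraries gave a false discovery rate of at most 0.001 over all genes and the log2 ratio of FPKM was at least 1 in size. This rule compares libraries and not conditions, since no replicate shows the spread between pools of mice. Square brackets hold 95% exact intervals of the ratio of counts per library total, on the log2 scale. They cover counting error only, and lie off center where the estimated transcript length differs between libraries. By this rule TR1 had 3 members higher and 3 lower than control, where 8.09% of all 16282 genes tested were higher and 13% were lower. TR9 had 2 higher and 2 lower, where 9.37% of 16303 genes were higher and 10.8% were lower. The 2 comparisons share the control library. Il1r2 and Il1rap were called higher in both, and Il1a and Il1rl1 were called lower in both. Between TR9 and TR1, 0 members were higher and 2 were lower in TR9, beside 4.34% and 2.31% of 15706 genes. The median log2 ratio of the 10 members, with genes at 0 placed at their bound, was 0.01 in TR1 and −0.72 in TR9, while the medians of all genes tested were −0.29 and −0.12.

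**Figure D1:**
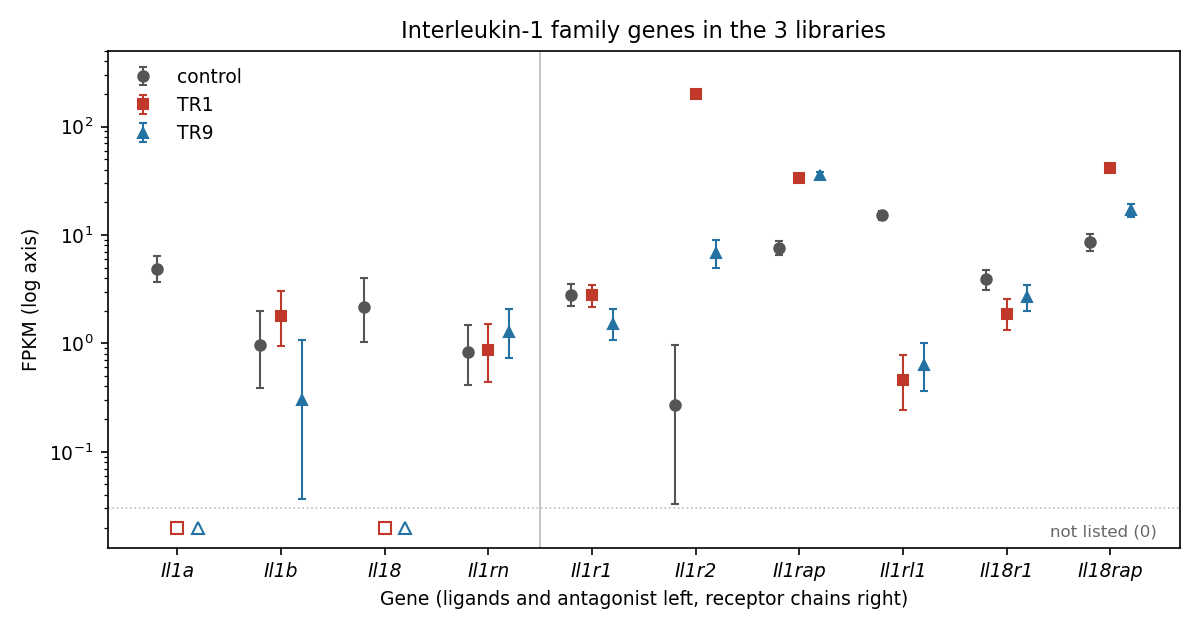
FPKM of the 10 genes on a log axis, 1 point per library (grey circle control, red square TR1, blue triangle TR9), with 95% exact Poisson intervals as bars and open symbols for genes not listed in a library. Il1r2 spans 0.27 to 201 FPKM, Il1rl1 is high in control alone, and Il1a and Il18 are listed in control alone.

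Ligand transcripts were scarce, and those of Il1a and Il18 were found in control alone. Il1a, which encodes the ligand IL-1α, lies on the minus strand of chromosome 2 at 129299610 to 129309972 (GRCm38). The control library held 53 counts, or 4.90 FPKM, and neither TR library held any. Against a floor of 3 counts per library, the drop was at least 17.9-fold in TR1 and at least 16.5-fold in TR9, and Il1a was called lower in both. Il18 lies on the plus strand of chromosome 9 at 50554827 to 50581840. The control library held 10 counts, or 2.16 FPKM, and the TR libraries held 0. The bounds were at least 3.38-fold lower and at least 3.11-fold lower, and neither passed the read test. Counts this small leave room for a low level in the TR libraries. Macrophage markers went both ways. The complement genes C1qa, C1qb and C1qc had 17.8, 15.0 and 15.0 FPKM in control and between 0 and 1.49 in the TR libraries. In contrast, the lysosomal marker Cd68 had 21.6, 159 and 58.7 FPKM and was higher in both, and the surface marker Adgre1 had 2.57, 12.0 and 4.24 and was higher in TR1. Among all genes tested, 8.09% were higher and 13% lower in TR1, and 9.37% and 10.8% in TR9. Of the 13 monocyte and macrophage markers, 5 were higher and 6 lower in TR1, and 3 were higher and 8 lower in TR9. Their summed level was 785, 6375 and 6705 FPKM, and Ly6c2, a surface protein of monocytes and immature granulocytes, gave most of it in the TR libraries. Of the 13 stroma and endothelium markers, 8 were lower in both TR libraries, 1 was higher in TR1 and 3 were higher in TR9. Their summed level was 569, 65.0 and 304 FPKM. The endothelial gene Pecam1, which leukocytes also express, gave 47.5 FPKM of this sum in TR1 and 256 in TR9, while the collagen gene Col1a1 went from 265 to 2.68 and 1.27. The part of these cell types in the ligand values was not tested.

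Il1b and Il1rn showed no call in any direction. Il1b encodes IL-1β, the form released through inflammasomes, and lies on the minus strand of chromosome 2 at 129364570 to 129371139. Its counts were 7 in control against 13 in TR1 and 2 in TR9. On the FPKM scale these were 0.97, 1.77 and 0.30, so TR1 was the highest and TR9 the lowest. The log2 ratio to control was 0.87 [−0.56, 2.44] in TR1 and −1.69 [−5.01, 0.68] in TR9, and both intervals hold 0. Between the TR libraries the log2 ratio was −2.56 [−5.77, −0.44], which did not pass at a false discovery rate of 0.001 and did at 0.05. Il1rn, on the plus strand of chromosome 2 at 24336853 to 24351494, encodes the receptor antagonist. It had 11.0, 11.7 and 15.7 counts, or 0.83, 0.86 and 1.27 FPKM. Its log2 ratios were 0.05 [−1.20, 1.43] and 0.61 [−0.56, 1.89], so a difference of up to about this width was not detectable at this depth.

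The 2 receptors that bind IL-1 itself parted. Il1r2, the decoy, had 2 counts in control and was the most abundant of the 10 genes in TR1, while Il1r1, the signaling receptor, was not called in any comparison. Il1r2 lies on the plus strand of chromosome 1 at 40074079 to 40125231, and its listed transcript has 8 coding exons that encode 410 residues. Control held 2 counts, TR1 held 1515 and TR9 held 47, or 0.27, 201 and 6.80 FPKM. Both TR libraries lay above control, and TR1 stood far above TR9. The ratio to control was 746-fold in TR1, a log2 ratio of 9.54 [7.69, 12.59], and 25.2-fold in TR9, a log2 ratio of 4.65 [2.72, 7.74]. The 2 control counts set the width of these intervals. With a pseudocount of 1 FPKM the log2 ratios were 7.32 and 2.62. TR9 was 29.6-fold lower than TR1, a log2 ratio of −4.89 [−5.34, −4.47] that was called.

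Il1r1 lies on the plus strand of chromosome 1 at 40225080 to 40317257, and its transcripts encode 573 or 576 residues. Control held 75 counts, TR1 held 74 and TR9 held 37, or 2.82, 2.77 and 1.51 FPKM. Control and TR1 could not be separated, with a log2 ratio of −0.03 [−0.52, 0.44], and TR9 was the lowest at −0.90 [−1.53, −0.34], which did not reach the required fold. Within a library, the FPKM of Il1r2 was 0.0957 times that of Il1r1 in control, 72.7 times in TR1 and 4.50 times in TR9. The order of decoy and signaling receptor was thus opposite in control and in the 2 TR libraries.

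Il1rap encodes the accessory chain of IL-1R1, of ST2 and of the IL-36 receptor, and lies on the plus strand of chromosome 16 at 26581704 to 26730117. It was higher in both TR libraries and nearly equal between them. Control held 186 counts, against 825 for TR1 and 837 for TR9, or 7.63, 33.4 and 35.8 FPKM. The ratio to control was 4.37-fold in TR1, a log2 ratio of 2.13 [1.90, 2.37], and 4.69-fold in TR9, a log2 ratio of 2.23 [2.04, 2.51]. Between TR9 and TR1 the log2 ratio was 0.10 [−0.00, 0.28], and it turned to −0.03 when the libraries were scaled by TMM. In TR9 this chain held 54.4% of the summed FPKM of the 10 genes and was the most abundant of them. Its FPKM was 2.71 times that of Il1r1 in control, 12.0 times in TR1 and 23.7 times in TR9. RefSeq holds 4 transcripts of Il1rap, of which NM_134103 ends early and encodes a short form of 360 residues against 570 to 685 in the others. The mean transcript length that RSEM gave was 4404 bases in control, 4391 in TR1 and 4513 in TR9. None of the 3 means lay near the 2306 bases of that short transcript. A mean cannot show whether a small share of the short transcript was present.

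**Figure D2:**
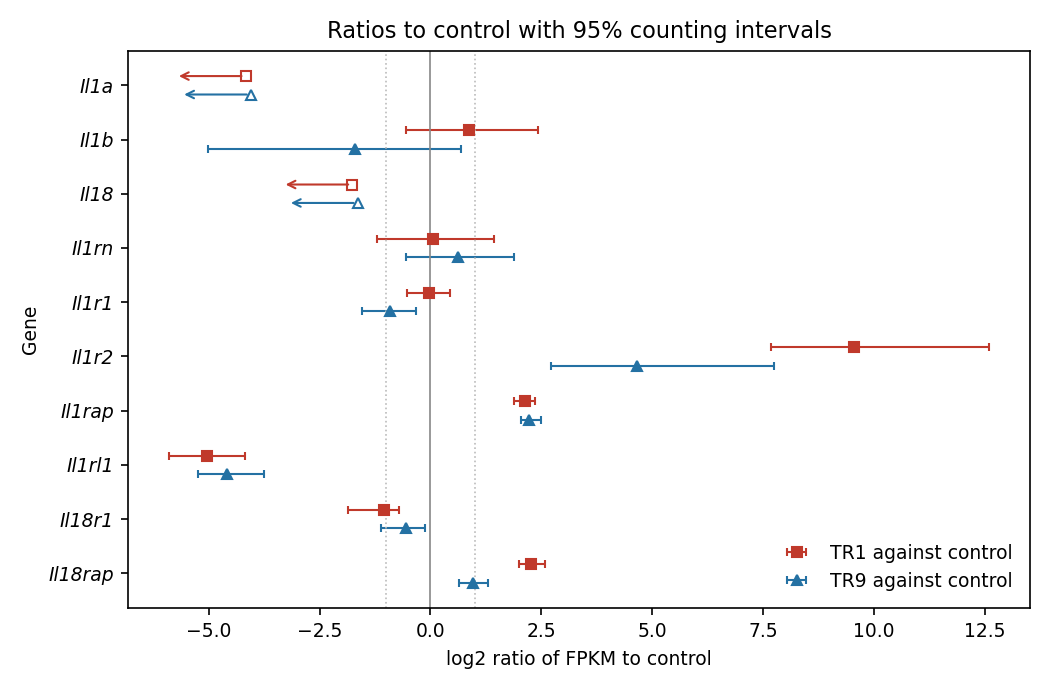
Log2 ratio of FPKM to the shared control for each gene (red square TR1, blue triangle TR9), with bars for the 95% counting interval, dotted lines at a log2 ratio of 1 in each direction, and open symbols with arrows for bounds. Il1r2, Il1rap and Il18rap lie to the right in both libraries, and Il1a, Il18 and Il1rl1 lie to the left.

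Il1rl1, the gene of the IL-33 receptor ST2, was the most abundant of the 10 genes in control and fell in both TR libraries. It lies on the plus strand of chromosome 1 at 40429570 to 40465415. Control held 399 counts, against 13.2 for TR1 and 16.5 for TR9, or 15.2, 0.46 and 0.63 FPKM. The TR libraries lay close together and far under control: 33.0-fold lower in TR1, a log2 ratio of −5.04 [−5.88, −4.17], and 24.1-fold lower in TR9, a log2 ratio of −4.59 [−5.25, −3.76]. Between TR9 and TR1 the log2 ratio was 0.45 [−0.62, 1.67], which was not called. The gene gives a long transcript for the membrane receptor of 567 residues and a short transcript for a soluble form of 337 residues. The mean length that RSEM gave was 4748 bases in control and 5080 bases in both TR libraries, the largest length in the files. GENCODE gives the long transcript 5302 bases and the short transcript 2661. With 5080 bases for the long transcript and the annotated length for the short, the control mean corresponds to an estimated 13.7% of short transcripts. The same assumption sets TR1 and TR9 to 0%, so their 0% is not an estimate of its own. Only 13.2 and 16.5 counts stand behind the mean lengths of TR1 and TR9.

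Markers of mast cells and basophils, cells that carry ST2, were mostly lower in the TR libraries, as Il1rl1 was. Of 9 listed markers, 8 were lower in both TR libraries, and their levels added up to 1020 FPKM in control against 87.4 and 90.4 in TR1 and TR9. Among all 16742 listed genes, 1404 were called lower in both. Prss34, a basophil protease, had 3346, 3 and 10 counts, and Gata2, a transcription factor of these lineages and of stem cells, had 915, 64 and 33. Cd200r3 had 90, 0 and 0 counts, and Fcer1a, the IgE-binding chain of the high-affinity receptor, had 55, 0 and 1 counts. Cma1 had 1 count in control and 0 in both TR libraries, too few to compare. Mcpt8, another basophil protease, was still at 57.3 and 66.3 FPKM in TR1 and TR9, after 247 in control. The ligand gene Il33 was not listed in any library. A fall from control was not particular to these cells. Of 11 stem and multipotent progenitor markers, 8 were lower and 2 higher in TR1, and 6 were lower and 1 higher in TR9. Among all genes tested, 13% were lower and 8.09% higher in TR1, and 10.8% and 9.37% in TR9. The erythroid and megakaryocyte markers were lower in both, as given above. How much of the Il1rl1 ratio goes with any of these cell types was not tested.

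The 2 chains of the IL-18 receptor also parted. Il18rap, the accessory chain, was higher in TR1, while Il18r1, the ligand-binding chain, was lower there. Il18rap lies on the plus strand of chromosome 1 at 40515362 to 40551705. Control held 118 counts, TR1 581 and TR9 216, or 8.60, 41.6 and 16.8 FPKM. Control was the lowest and TR1 the highest. The ratio to control was 4.84-fold in TR1, a log2 ratio of 2.27 [1.99, 2.58]. In TR9 the log2 ratio of 0.97 [0.64, 1.31] lay just outside the fold threshold and was not called. TR9 was below TR1 by a log2 ratio of −1.31 [−1.54, −1.08], which was called.

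Il18r1 lies on the plus strand of chromosome 1 at 40465552 to 40500854. Control held 89.5 counts, TR1 38.3 and TR9 55.4, or 3.89, 1.88 and 2.66 FPKM. Its log2 ratio was −1.05 [−1.85, −0.70] in TR1, just inside the threshold, and −0.55 [−1.12, −0.11] in TR9, which was not called. The TR1 call was lost under TMM scaling, the median of ratios, a pseudocount of 1 FPKM, a log2 ratio of at least 2, and edgeR's exact test at an assumed coefficient of variation of 0.2 or 0.4. Under TMM and the median of ratios the TR9 value of Il18rap was called. Within a library, the FPKM of Il18rap was 2.21 times that of Il18r1 in control, 22.1 times in TR1 and 6.32 times in TR9. Il18r1 has a long transcript that encodes 537 residues and 2 short transcripts that encode 372. The mean length that RSEM gave was 4158 bases in control, the length of the long transcript, 3620 bases in TR1 and 4022 bases in TR9. This corresponds to an estimated 22.2% to 24.0% of short transcripts in TR1 and 5.61% to 6.06% in TR9, against 0% in control. The ratio of plain counts, without this length term, was lower in TR1 by a log2 ratio of −1.24.

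Markers of T, NK and innate lymphoid cells, where the IL-18 receptor is best known, had few calls in either direction. Of 16 markers, 1 was higher and 2 lower in TR1, and 0 were higher and 2 lower in TR9. Among all genes tested, 8.09% were higher and 13% lower in TR1, and 9.37% and 10.8% in TR9. Most of the 16 had 14 or fewer counts in every library, so the list cannot show whether these markers moved with Il18rap. Of the rest, Nkg7 was called higher in TR1 alone, Il7r was called lower in both, and Cd247 was not called. Nkg7 gave most of the summed level of the 16 markers, which was 114 FPKM in control. Nkg7 alone accounted for 194 of 203 FPKM in TR1 and for 155 of 165 in TR9. The NK cell genes Gzmb, Ncr1, Tbx21 and Klrd1 were not listed in either TR library, but the control library held only 13, 8, 2 and 2 counts of them, and of these Gzmb was called. Eomes, another NK cell gene, had 0, 4.74 and 1.07 counts and was not called. Markers of late neutrophil maturation were higher in TR1, as Il1r2 and Il18rap were, and most were higher in TR9, where Il18rap was not called. Of 11 such markers, 11 were higher in TR1 and 8 in TR9. Mmp9 with 7, 35 and 12 counts, Cxcr2 with 191, 490 and 131 and Retnlg with 23, 134 and 21 were not called in TR9. The levels of the 11 markers added up to 105 FPKM in control against 23297 in TR1 and 9061 in TR9. These markers did not keep a single order between the TR libraries. S100a8 had 8188 FPKM in TR1 and 2414 in TR9, and S100a9 had 12864 and 1773, whereas the granule genes Camp with 364 and 1647 and Ngp with 571 and 2833 were higher in TR9. The part of maturation in these receptor values was not tested.

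The sequence before the start of Il18rap is shown because this gene and its neighbour Il18r1, which encode the same receptor, had opposite ratios in TR1. It runs 250 bases up to the start of the RefSeq transcript NM_010553 (GRCm38.p6), 5′ to 3′ on the plus strand, at chr1:40515112-40515361. Capitals mark matches to motifs of myeloid factors.
Il18rap: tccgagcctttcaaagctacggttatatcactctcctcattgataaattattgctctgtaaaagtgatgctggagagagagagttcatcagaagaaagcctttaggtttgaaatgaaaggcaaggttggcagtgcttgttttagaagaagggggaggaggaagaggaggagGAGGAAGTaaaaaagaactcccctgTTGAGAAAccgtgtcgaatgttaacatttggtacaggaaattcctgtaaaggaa
Both strands were searched for the PU.1 motif GAGGAAGT, the C/EBP motif TTNCNNAA, the AP-1 motif TGANTCA and the retinoic acid receptor half-site AGGTCA. The Il18rap stretch holds GAGGAAGT from 79 bases before the start, at the end of a purine-rich run, and TTGAGAAA, a C/EBP match on the other strand, from 54 bases before it. None of the 4 motifs was found in the 250 bases before any of the 3 RefSeq starts of Il18r1. The other members were searched in windows that also reach past the start. Il1r2 and Il1rap, called higher in both TR libraries, held 0 matches, as did Il18. The window of Il1r2 lay off the start of its listed transcript. C/EBP matches were found for Il1a, Il1b, Il1r1, Il1rl1 and Il1rn, none of them called higher. Half-sites were found for Il1rl1 and Il1rn, and AP-1 matches for Il1a and Il1rn. Of 32851 windows of 250 bases before mouse genes, 2.44% hold the PU.1 motif, 36.8% the C/EBP motif, 6.75% the AP-1 motif and 14.0% the half-site. The windows of the other members were longer than 250 bases, and some members had several. These shares are therefore not the rate of a match per member. A match describes the letters and does not show that a factor binds.

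Of the 10 genes, 5 lie in the receptor cluster of chromosome 1, all on the plus strand within 478 kb. The order along it is Il1r2, Il1r1, Il1rl2, Il1rl1, Il18r1 and Il18rap, of which Il1rl2, the IL-36 receptor, is the sixth family gene of the cluster. The neighbours did not share a direction. In TR1 the decoy gene at the start of the cluster was higher, Il1r1 was not called, Il1rl2 was higher, Il1rl1 and Il18r1 were lower, and Il18rap at its end was higher. Il1rl1 and Il18r1 are separated by only 133 bases in RefSeq, yet their log2 ratios were −5.04 and −1.05 in TR1 and −4.59 and −0.55 in TR9. Outside the cluster, Map4k4, a kinase gene on its left, had 601, 200 and 77 counts and was lower in both TR libraries. Slc9a4 and Slc9a2, transporter genes on its right, had at most 6 counts in any library.

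**Figure D3:**
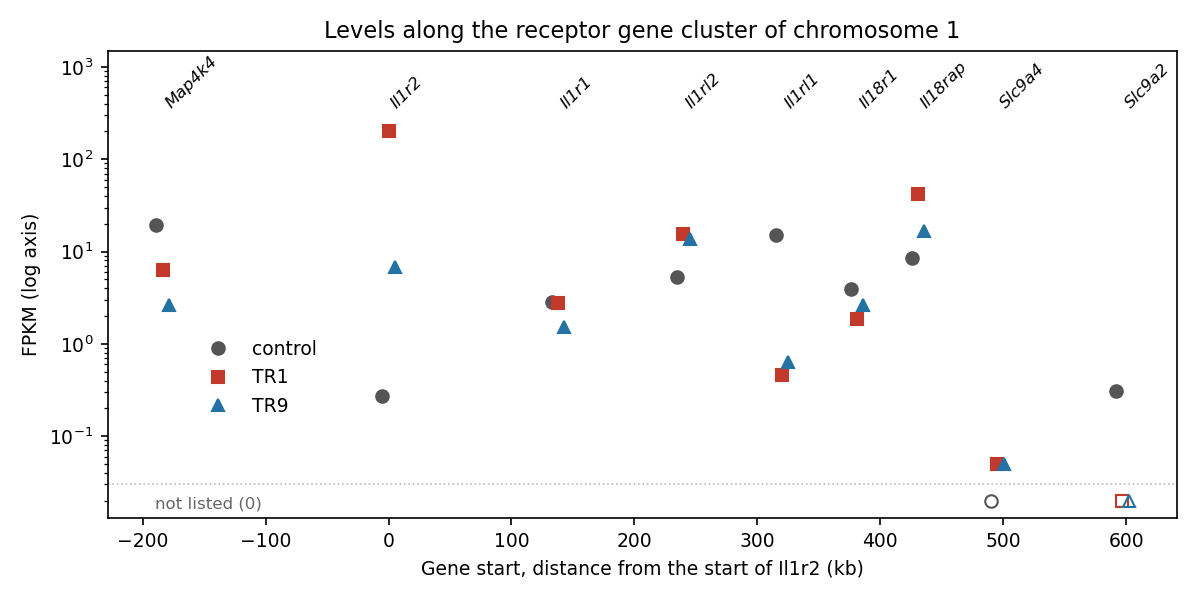
FPKM on a log axis of the genes along the chromosome 1 cluster against the distance of each gene start from that of Il1r2 in kb (grey circle control, red square TR1, blue triangle TR9, open symbols not listed; points of a gene are offset slightly). The order of the 3 libraries changes from gene to gene, with TR1 highest at Il1r2 and Il18rap and control highest at Il1rl1 and Il18r1.

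On chromosome 2, Il1a and Il1b were flanked by Ckap2l, a gene of the mitotic spindle, which had 1289, 517 and 587 counts and was lower in both TR libraries. Transcripts on the opposite strand overlap Il1a (Gm14023), Il1b (Il1bos), Il1r2 (Gm16894), Il1rap (Gm20319) and Il18 (Bco2 and Tex12). Whether the counting used strand is not stated, so reads of these pairs cannot be assigned with certainty. Gm16894 had 2, 0 and 5 counts, against 2, 1515 and 47 of Il1r2. Gm14023 had 15.3, 1.03 and 6.33 counts and Il1bos had 5, 4 and 2.97.

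The genes with levels most like each of the 4 most abundant members were taken by Euclidean distance in log2(FPKM + 1) over the 3 libraries, so each pattern rests on 3 points. Nearest to Il1r2 was Cyp2a5, a cytochrome P450 gene, with 0.21, 238 and 8.74 FPKM and a distance of 0.407. Saa3, an acute-phase gene, followed at 1.04 and Rpl39l, a ribosomal protein gene, at 1.74. Nearest to Il18rap were Per1 at 0.234, Abhd5 at 0.278 and Tctex1d2 at 0.407. Nearest to Il1rap were Marveld1 at 0.129, 1600014C10Rik at 0.180 and Ceacam1 at 0.212. Nearest to Il1rl1 were Prkca, a protein kinase C gene, at 0.104, Pde5a at 0.264 and Crip2 at 0.330. Il1r2 thus had the loosest nearest neighbour of the 4.

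As a set, the 10 genes added up to 47.2 FPKM in control against 284 in TR1 and 65.8 in TR9, and the largest contributor differed in each library. It was Il1rl1 with 32.1% in control, Il1r2 with 70.9% in TR1 and Il1rap with 54.4% in TR9. By fold alone, with no read test, TR1 had 3 members higher and 4 lower, beside 17.3% and 26.4% of all genes, and TR9 had 2 higher and 4 lower, beside 19.7% and 23.1%. Between TR9 and TR1, fold alone gave 0 higher and 3 lower, beside 17.0% and 11.3%. Il18 is among the lower members by this measure in both TR libraries and Il1b in TR9.

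Other genes of the family and its pathway were read from lists chosen for their known role. Of the 11 family genes outside the 10, 4 were listed. Il36g, an IL-36 ligand, had 2.65, 59.9 and 20.4 counts and was called higher in both TR libraries, with log2 ratios of 4.45 [2.68, 6.62] and 3.01 [1.08, 5.23]. Il18bp, which neutralizes IL-18, had 14, 62 and 84 counts and was also called higher in both, with 2.12 [1.27, 3.08] and 2.68 [1.86, 3.61]. Il1rl2, the receptor of IL-36, had 57, 169 and 135 counts and was called higher at 1.54 [1.11, 2.01] and 1.34 [0.88, 1.81]. The inhibitory receptor Sigirr had 59, 31 and 46 counts and was not called, at −0.96 [−1.63, −0.30] and −0.26 [−0.85, 0.32]. Il33, Il36a, Il36b, Il36rn, Il1f10, Il1rapl1 and Il1rapl2 were not listed.

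Of 23 inflammasome and release genes, 7 were higher and 2 lower in TR1, and 6 were higher and 4 lower in TR9. Their median log2 ratio was 0.44 in both. Among all genes tested, 8.09% were higher and 13% lower in TR1, and 9.37% and 10.8% in TR9. The sensors Nlrp12, with 9.02, 163 and 105 counts, and Mefv, with 132, 903 and 610, rose in both TR libraries. So did Casp4, the caspase that senses lipopolysaccharide, with 56, 423 and 249 counts, and the pore former Gsdme, with 23, 68 and 75. Nlrp6, with 25, 2 and 1 counts, and the ATP-gated channel P2rx7, with 63, 4 and 10, fell in both. Casp1, which cleaves IL-1β and IL-18, had 142, 261 and 302 counts. Its log2 ratio was not called in TR1, at 0.85 [0.56, 1.16], and was called in TR9, at 1.18 [0.89, 1.48]. Its adaptor Pycard had 121, 180 and 154 counts and was not called. Nlrp3 had 29, 10 and 6 counts and was lower in TR9 alone by the call rule, at −2.16 [−3.73, −0.88] against −1.56 [−2.76, −0.48] in TR1, and the TR libraries did not differ by that rule. Gsdmd, the pore through which IL-1β leaves the cell, had 183, 401 and 323 counts, called in TR1 at 1.11 [0.85, 1.37] and not in TR9 at 0.92 [0.65, 1.19].

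Of 31 listed receptor signaling genes, 3 were higher and 3 lower in TR1, and 3 were higher and 4 lower in TR9, with medians of −0.15 and 0.04. The all-gene shares were 8.09% higher and 13% lower in TR1, and 9.37% and 10.8% in TR9. Most of this list, 25 and 24 genes, was not called. The kinase gene Map3k8 rose in both, with 5, 75 and 40 counts. Traf6, the ubiquitin ligase downstream of MYD88, had 405, 118 and 166 counts and the kinase gene Mapk9 had 839, 227 and 296, and both fell in both TR libraries. Myd88 had 209, 540 and 250 counts. It was called higher in TR1 at 1.34 [1.11, 1.59] and not in TR9 at 0.35 [0.09, 0.63], and the difference between TR9 and TR1 of −0.99 [−1.21, −0.77] was just outside the fold threshold.

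Of 22 listed genes known to be induced by IL-1 or IL-18, 21 were tested in each comparison with control. Of those tested, 9 were higher and 4 lower in TR1, and 7 were higher and 2 lower in TR9, with medians of 0.27 and 1.16. The all-gene shares were 8.09% higher and 13% lower in TR1, and 9.37% and 10.8% in TR9. The 7 higher in both included Lcn2, a neutrophil granule and acute-phase gene, with 29, 5044 and 1109 counts, and Nfkbia, the NF-κB inhibitor, with 92, 1057 and 304. They also included Ptgs2, the inducible cyclooxygenase, with 4, 43 and 36 counts, and Ier3, an early response gene, with 44, 239 and 259. Other genes of the list fell. Called lower were Tnfaip2, Sod2, Ccl3 and Cxcl5 in TR1, and Icam1 and Csf1 in TR9, with 0 genes lower in both. The genes of this list are induced by other stimuli as well, and Lcn2 is also among the late neutrophil markers. The chemokine and cytokine genes Cxcl1, Cxcl3, Csf2 and Ifng were not listed in any library.

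**Figure D4:**
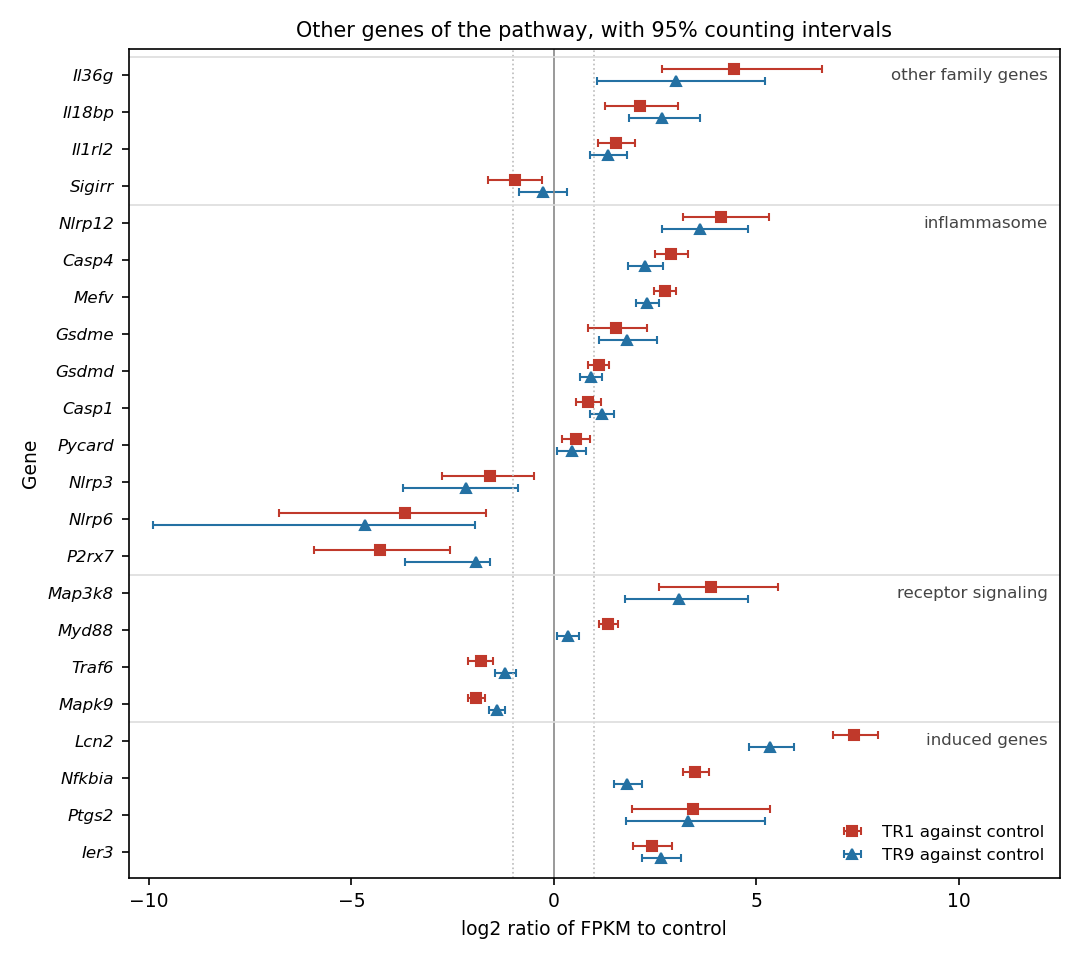
Log2 ratio of FPKM to the shared control for 22 named genes outside the 10, by list (4 other family genes, 10 inflammasome genes, 4 receptor signaling genes and 4 induced genes), with 95% counting intervals and dotted lines at a log2 ratio of 1 in each direction. Red squares are TR1 and blue triangles TR9; Il36g, Il18bp and Il1rl2 lie to the right in both, and Traf6 and Mapk9 to the left.

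TR9 and TR1 were also compared directly, without the control library. Il1r2 and Il18rap were called lower in TR9, and Il1rap, Il1rl1, Il1rn, Il1r1, Il18r1 and Il1b were not called. Il1a and Il18 had 0 counts in both. Of the other family genes, Il36g was lower in TR9 by a log2 ratio of −1.43 [−2.27, −0.71], while Il18bp at 0.56 [0.07, 1.05] and Il1rl2 at −0.20 [−0.54, 0.13] were not called. Of the induced genes, 1 was higher and 6 were lower in TR9, among them Lcn2 at −2.06 [−2.16, −1.97] and Nfkbia at −1.68 [−1.87, −1.49]. Of all genes tested, 4.34% were higher and 2.31% lower in TR9. Each TR library is 1 pool from 1 primary leukemia, so these differences are between 2 pools.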

How the data were processed

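RNA-seq of 3 libraries, 1 per condition (control, TR1 and TR9), was analysed. Reads had been cleaned by the authors, aligned by means of BWA and Bowtie, and turned into gene values by RSEM. The submitters' processing notes also list mm9, and versions and strand are not given in the sources used here. The deposited values are expected counts, which need not be whole and are not normalized, FPKM, which the authors had scaled for length and library total, and the mean transcript length of each gene. Depth was 5488778, 5571409 and 5129662 expected counts.

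Genes absent from a file were set to 0. Gene IDs were matched to RefSeq (16698 of 16742). Coordinates come from GENCODE M21 (GRCm38), and promoters and the 133-base gap from RefSeq (GRCm38.p6). Rounded expected counts were compared by a two-sided exact Poisson test, conditional on the sum of both libraries (scipy 1.17.1), with Benjamini-Hochberg adjustment over genes listed in either library, the study's stated thresholds, and FPKM under 0.01 set to 0.01. A quasi-likelihood test needs replicates and was not run. Intervals are 95% Clopper-Pearson intervals of the ratio of counts per library total, not of the FPKM ratio beside which they stand, and cover counting error only. Folds against 0 counts use a floor of 3 counts per library. Shares of short transcripts solve the mean length for a mixture with the annotated short length.

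The members, lists and tests were chosen with earlier results of these data known. Named genes were all members, every listed gene of the family outside them, 8 genes fixed by name, up to 4 genes per list and direction called in both TR libraries, cluster genes with 3 flanking genes a side, and the 3 genes nearest to each of the 4 most abundant members among genes with at least 30 counts in a library. The text reports some of these. Il1rn lies 105 Mb from Il1a, so genes between them were not taken. The C1q genes, Cd68, Adgre1, Ly6c2, Pecam1, Col1a1, Nkg7, Cd247, Il7r, Eomes and the NK genes at 0 were named after their values were seen. So were Mcpt8, Cma1, the neutrophil genes with opposite orders or no call in TR9, the induced genes called lower, and Saa3 as an induced gene. The steps were tested on data simulated with counting error alone, so that test does not cover the spread between pools of mice. Alternatives were TMM scaling (edgeR 4.0.16), the median of ratios (DESeq2 1.42.0), a pseudocount of 1 FPKM, a minimum of 10 counts, edgeR's exact test with an assumed coefficient of variation of 0.2 or 0.4, a false discovery rate of 0.05, a log2 ratio of at least 2, fold alone and plain count ratios. Python 3.11.15 and R 4.3.3 were used.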

Additional observations from a re-analysis of the deposited data

Results flagged for a closer look

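Several genes differed between the 2 TR leukemias under the same contrast with control. The values here are log2 ratios of TR9 over TR1, and each compares 2 pools with no replicate. Il1r2, the decoy receptor, had −4.89 and Il18rap had −1.31, and both passed the read test and the fold. The IL-36 ligand gene Il36g had −1.43, and the induced genes Lcn2 and Nfkbia had −2.06 and −1.68, which also passed. Il1b lay above control in TR1 and under it in TR9, with −2.56 between them. At 2 and 13 counts this difference was not called, nor by edgeR's exact test at an assumed coefficient of variation of 0.2 or 0.4, but it was called at a false discovery rate of 0.05. Late neutrophil markers differed between these libraries as well, with 2 of 11 higher and 6 lower in TR9, and their part in these values was not tested.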

How the results depend on the processing

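No paired analysis was possible because each condition has 1 library. TMM and the median of ratios put the offset of TR1 from control at −0.25 and −0.24, and removing it raised each TR1 log2 ratio by that amount. TMM changed the calls over all genes to 1694 higher and 1591 lower in TR1 (from 1318 and 2120), 1717 and 1503 in TR9 (from 1527 and 1766), and 551 and 445 for TR9 against TR1 (from 681 and 363). An assumed coefficient of variation of 0.2 left 657 and 992, 717 and 830, and 188 and 94 genes, and 0.4 left 170 and 347, 161 and 287, and 13 and 2. A log2 ratio of at least 2 left 685 and 1133, 738 and 928, and 283 and 135, and fold alone gave 2809 and 4306, 3210 and 3767, and 2669 and 1772.

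Over the pathway lists, the 22 higher and 9 lower genes in TR1, 19 and 10 in TR9, and 5 and 9 between TR9 and TR1 became 12 and 4, 11 and 4, and 1 and 3 at a coefficient of 0.2. They became 2 and 0, 1 and 0, and 0 and 1 at 0.4, and 13 and 3, 11 and 4, and 1 and 5 at a log2 ratio of at least 2. Between TR9 and TR1, fold alone gave 9 and 14, and TMM gave 3 higher.

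Of the members, 1 was called higher in TR1 and 0 in TR9 at a coefficient of 0.4, where Il1rap lost its call in both, Il18rap and Il18r1 in TR1 and Il1r2 in TR9. At 0.2, Il18r1 lost its call in TR1. The spread between pools of mice is not measured here. Fold alone gave 4 lower in TR9. Il18rap lost its call between TR9 and TR1, leaving 1, at both coefficients and at a log2 ratio of at least 2. At a false discovery rate of 0.05, Il18 was called lower in both TR libraries and Il1b was called between TR9 and TR1. Of 112 values of single members under an alternative, 103 stayed within the counting interval of the value as reported, 9 moved outside it, and 6 of these came from the pseudocount of 1 FPKM (Il1r2 to 7.32 and 2.62, Il1rl1 to −3.47 and −3.31, Il1a to −2.56 in both). In all, 0 called values changed sign. The medians of the members' log2 ratios were 0.26, −0.62 and −0.52 under TMM. Depth limits Il1b, Il18 and Il1rn most, at 16 counts or fewer per library.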
